A study of Mus musculus with 3 samples.

Results

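Wnt ligands, frizzled receptors and the modulators of Wnt signalling were compared between 2 stromal cell populations of mouse bone marrow. The members were chosen by gene name: the Wnt, frizzled, Sfrp, Dickkopf and R-spondin families, Lrp5, Lrp6, Ror1, Ror2, both Kremen genes, Wif1, both Axin genes, beta-catenin and the TCF/LEF factors. This gave 55 of the 19938 genes that had a probe set with a single gene symbol. Of these, 54 encode proteins and 1, Fzd10os, is a non-coding RNA on the opposite strand next to Fzd10. Tcf7 also fits the name pattern, but no probe set carried its symbol alone, and it is not analysed here.

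CXCL12-abundant reticular (CAR) cells were sorted from the marrow of tibia, femur and pelvis of Cxcl12-GFP knock-in mice and hybridised on 2 arrays, from 2 mice. Cells sorted as positive for PDGFRα and Sca-1 and negative for CD45 and lineage antigens (PaS cells) were combined from 3 mice carrying Prx1-Cre, a Rosa26-Ai9 reporter allele and a Cxcl12-GFP allele, and hybridised on 1 array. Both groups thus carried a GFP allele at Cxcl12, and both were taken at baseline from the same bones, but only the PaS mice carried Prx1-Cre, which is driven by limb mesenchyme regulatory sequence of Prrx1, and the Ai9 Cre reporter. Genotype therefore differed together with cell type, and the PaS side had no replicate. Animal age is not given in the sources used here.

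Wnt proteins are secreted, lipid-modified ligands that bind a frizzled receptor together with the co-receptor LRP5 or LRP6, which stabilises beta-catenin and lets it act with TCF/LEF factors in the nucleus. Secreted frizzled-related proteins and WIF1 bind the ligands outside the cell, some Dickkopf proteins bind LRP5 and LRP6, and R-spondins raise the number of frizzled receptors at the surface. In marrow stroma the pathway is known for favouring osteoblast over adipocyte differentiation.

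The array labelled PaS went against its gate in some genes. Pdgfra, the receptor used for the gate, stood at 7.52 and 7.97 log2 intensity units on the CAR arrays, against 4.33 on the PaS array. Ptprc, which encodes CD45, stood at 5.11 and 5.01 on the CAR arrays, against 8.27 on the PaS array. Of 8 general leukocyte markers 7 were lower in CAR cells, and the 8 log2 levels summed to 43.1 and 46.6 on the CAR arrays, against 65.9 on the PaS array. The CAR stroma markers moved the other way, with 8 of 8 higher and sums of 72.2 and 74.0 on the CAR arrays, against 39.6 on the PaS array, and of 5 osteoblast markers 3 (Ibsp, Sp7 and Alpl) were higher. The other 2 did not pass, with log2 differences of 0.21 (Dmp1) and, in the opposite direction, -0.82 (Col1a1). Osteoblast sums were 31.9 and 33.6 on the CAR arrays, against 25.3 on the PaS array. Neutrophil markers were lower in 8 of 10 cases, with sums of 68.96 and 64.87 on the CAR arrays, against 94.99 on the PaS array, and endothelial markers in 4 of 8, with sums of 24.97 and 24.42, against 37.96. Of 8 Sca-1+ stroma markers, Thy1, Dpt and Cd34 were lower in CAR cells, while Pdgfra and Prrx1 were higher. The part of other cells in the member differences was not tested, and in bulk sorted samples fewer cells of a type and less RNA per cell cannot be told apart.

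Of the 55 members, 11 were higher in CAR cells and 2 lower in limma's test (Benjamini-Hochberg adjusted p under 0.05 over all 19938 genes). That is 20% of members higher and 3.64% lower, beside 8.56% and 6.42% of all genes. By size alone, 12 members exceeded their PaS level 2-fold or more on each CAR array, and 3 fell below it by as much, which is 21.8% and 5.45% of members, beside 10.9% and 8.92% of all genes. The median difference, CAR minus PaS, was 0.16 log2 units over the members and -0.10 over all genes. The 11 higher members were the R-spondins Rspo2 and Rspo3, the receptors Fzd5 and Fzd7, the co-receptor Lrp6, the antagonists Sfrp1, Sfrp2, Sfrp4 and Wif1, and the transcription factors Tcf7l1 and Tcf7l2. The 2 lower members were Dkk4 and the ligand Wnt16. Among 19 Wnt ligands, 0 were higher by limma's test (3 had an unadjusted p under 0.05 in either direction, as had 35.1% of all genes). Wnt3a and Wnt5a passed after quantile normalization, but both lay below the median gene on all 3 arrays. Wnt4 passed with values below the median raised to it, which left its own values unchanged and gave the prior little weight. Brightness matters for these folds: on the PaS array Rspo2, Lrp6, Wif1 and Tcf7l1 lay below the median of all genes, 3.77, where values may be background.

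**Figure D1:**
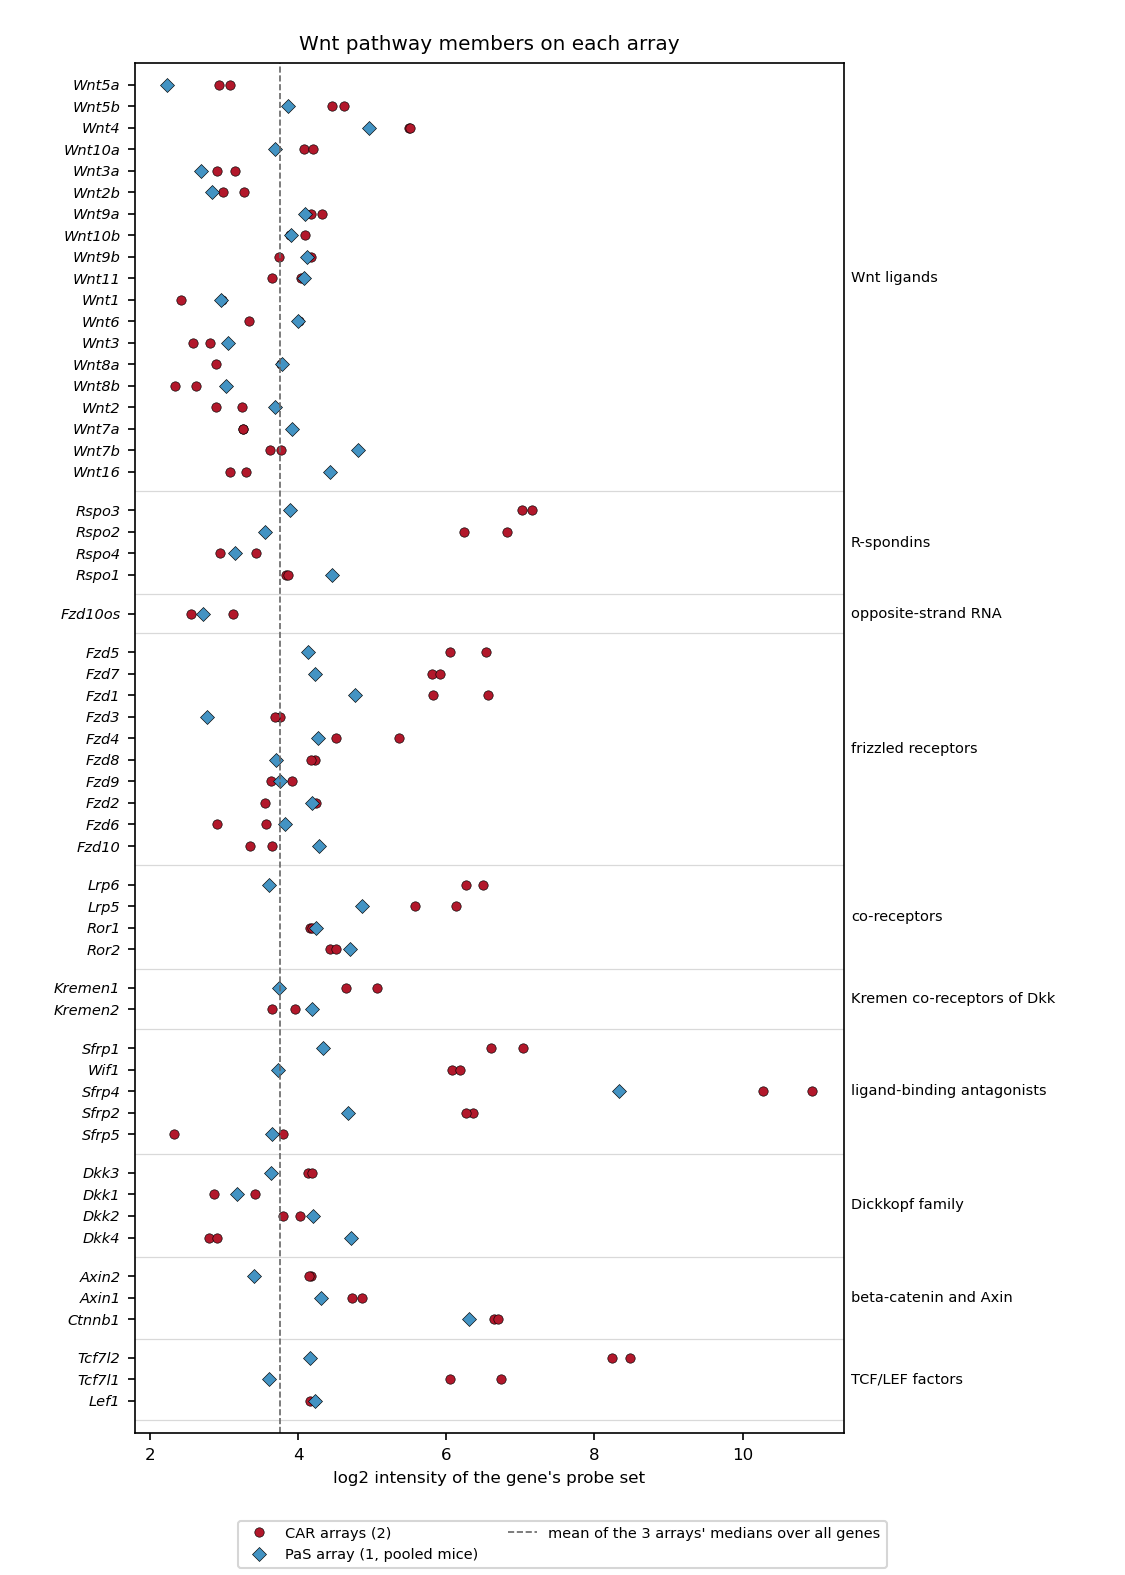
Log2 intensity of the probe set of each of the 55 members (horizontal axis), with genes down the page by role. Red circles are the 2 CAR arrays, blue diamonds the single PaS array, and the dashed line is the mean of the array medians over all genes. Most Wnt ligands lie near or left of the line on all arrays, whereas Rspo2, Rspo3, Lrp6, Tcf7l1 and Tcf7l2 have both CAR points far to the right of the PaS point.

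Most ligands were close to the middle of each array or below it. Their log2 levels ran between 2.58 and 5.50 on CAR array 1 and between 2.33 and 5.51 on CAR array 2, against 2.23 to 4.96 on the PaS array. Of 19 ligands, 9 and 6 lay above the array's median gene on the CAR arrays, against 11 on the PaS array, and 7 lay at or below it on all 3. Only Wnt4 exceeded the upper quartile of all genes on both CAR arrays, with 5.50 and 5.51, against 4.96 on the PaS array, and on the PaS array Wnt4 and Wnt7b were the 2 ligands above that quartile. The Wnt4 difference of 0.54 ± 0.28 log2 units (SE) did not pass the test (limma adjusted p = 0.230). It passed with a floor at the median (limma adjusted p = 0.0432), although that floor left the Wnt4 values unchanged. There the prior over all genes carried little weight (0.27 degrees of freedom, against 4.20), so the p-value rested on the 2 close CAR values. The second probe set of Wnt4 gave 3.77 and 4.56 on the CAR arrays, against 3.42 on the PaS array, so both sets were higher on both CAR arrays. Wnt4 is a ligand that can signal with or without beta-catenin, depending on the cell.

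Wnt16, a ligand known in mice for its part in cortical bone strength, stood at 3.30 and 3.08 on the CAR arrays, against 4.43 on the PaS array. It was 2.37-fold lower in CAR cells (log2 difference -1.24 ± 0.29, SE; limma adjusted p = 0.0492). Both CAR values lay below the median gene of their arrays, so the size of the fold is uncertain. Wnt7b, a ligand with a known role in osteoblast formation in mice, had 3.77 and 3.62 on the CAR arrays, against 4.80 on the PaS array, and just missed the threshold (log2 difference -1.11, limma adjusted p = 0.0590). It passed after quantile normalization, with that floor, with genes below the median level left out, and with a robust variance prior, where limma's adjusted p ran from 0.00857 to 0.0499. The floor, 3.76, raised its second CAR value and so narrowed the CAR spread. The filter used the mean over all 3 arrays, to which the high PaS value contributed. These 2 settings therefore do not test the Wnt7b difference. Markers of joint surface and cartilage moved in the same direction, with 4 of 8 lower in CAR cells and sums of 31.3 and 33.8 log2 units on the CAR arrays, against 50.5 on the PaS array. Their part in the Wnt16 and Wnt7b values was not tested. The noncanonical ligands Wnt5a and Wnt5b showed positive differences of 0.77 and 0.68 log2 units that did not pass (limma adjusted p = 0.124 and 0.161). Wnt5a was dim throughout, at 3.08 and 2.93 on the CAR arrays, against 2.23 on the PaS array. After quantile normalization its difference was 1.32 and passed (limma adjusted p = 0.00948). The other 14 ligands had differences between -0.66 (Wnt7a) and 0.46 (Wnt10a), and none of them passed on the deposited scale. Wnt3a was called higher after quantile normalization (0.85 log2 units, limma adjusted p = 0.0470), but it lay below the median gene on all 3 arrays. It stood at 3.15 and 2.91 on the CAR arrays, against 2.68 on the PaS array. Wnt7a was called lower with the floor (-0.16, limma adjusted p = 0.00357). Both its CAR values were raised to the floor, which left no CAR spread, so this call is not read as a difference.

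Of 4 R-spondins, 2 were higher in CAR cells. Rspo3 stood at 7.16 and 7.03 on the CAR arrays, against 3.89 on the PaS array, 9.22-fold apart (3.21 ± 0.28 log2 units, SE; limma adjusted p = 0.0114). Rspo2 stood at 6.82 and 6.24 on the CAR arrays, against 3.56 on the PaS array, a 7.85-fold difference (2.97 ± 0.36 log2 units; limma adjusted p = 0.0164). Both CAR arrays lay well above the PaS array for these paralogs. Rspo1 had the opposite sign without passing, at 3.83 and 3.86 on the CAR arrays, against 4.45 on the PaS array (limma adjusted p = 0.190). Rspo4 had 2.94 and 3.43 on the CAR arrays, against 3.15 on the PaS array, so the groups overlapped. Differences between the paralogs were not tested. R-spondins are secreted proteins that bind the receptors LGR4, LGR5 and LGR6 and remove the ubiquitin ligases ZNRF3 and RNF43 from the cell surface. Among these 5 partners, Lgr4 was 4.22-fold higher in CAR cells, with 5.35 and 5.20 on the CAR arrays, against 3.20 on the PaS array (limma adjusted p = 0.0199). Its PaS value lay below the median of all genes, where values may be background, and adding 16 intensity units before the log brought the difference to 1.12 log2 units, against 2.08 as deposited. The other 4 did not pass. Of these, Lgr5 had the opposite sign, at 3.31 and 3.55 on the CAR arrays, against 4.46 on the PaS array (log2 difference -1.04, limma adjusted p = 0.0720).

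Of 10 frizzled receptors, 2 were higher in CAR cells and 0 lower by limma's test (5 had an unadjusted p under 0.05, as had 35.1% of all genes). Fzd5 stood at 6.05 and 6.53 on the CAR arrays, against 4.14 on the PaS array, 4.46-fold apart (2.16 ± 0.33 log2 units, SE; limma adjusted p = 0.0241). Fzd7 stood at 5.80 and 5.91 on the CAR arrays, against 4.23 on the PaS array, a 3.09-fold difference (1.63 ± 0.28; limma adjusted p = 0.0287). Fzd1 was more than 2-fold higher on both CAR arrays, at 5.81 and 6.56 against 4.76 on the PaS array, but the CAR arrays were unequal and it did not pass (1.42 ± 0.40; limma adjusted p = 0.0698). Fzd3 (log2 difference 0.96, limma adjusted p = 0.0777) also did not pass. It stood at 3.76 and 3.69 on the CAR arrays, close to their median genes, against 2.77 on the PaS array. That PaS value lay below the median gene, where values may be background. The Fzd3 difference came to 0.0015 with the floor at the median and 0.36 with 16 intensity units added. Fzd1 and Fzd3 both passed after each array was centred on its median. Fzd1 also passed with dim genes left out or the robust prior, and Fzd3 also after quantile normalization. Fzd6 and Fzd10 were called lower with the floor, at -0.06 and -0.52. Both CAR values of each gene were raised to the floor, 3.76, which left no CAR spread, so these calls are not read as differences. For Fzd4 the CAR arrays were unequal too, with 4.51 and 5.37, while the PaS array had 4.27. Fzd10 and Fzd6 had the most negative differences of the family, -0.78 and -0.58, without passing. Fzd2, Fzd8, Fzd9 and the non-coding Fzd10os lay between -0.29 and 0.49.

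Of 4 co-receptors, 1 was higher in CAR cells. Lrp6 stood at 6.50 and 6.27 on the CAR arrays, against 3.61 on the PaS array, 6.85-fold apart (2.78 ± 0.29 log2 units, SE; limma adjusted p = 0.0129). Lrp5, its paralog, had 5.58 and 6.14 on the CAR arrays, against 4.86 on the PaS array, and did not pass (0.998 ± 0.349; limma adjusted p = 0.112), but did after centring (limma adjusted p = 0.0466). Ror1 and Ror2 are receptor tyrosine kinases that bind Wnt5a. Ror1 stood at 4.15 and 4.18 on the CAR arrays, against 4.24 on the PaS array, and Ror2 at 4.43 and 4.51, against 4.70, so neither passed. Kremen1, which binds Dickkopf proteins and removes LRP6 from the surface, had 4.64 and 5.07 on the CAR arrays, against 3.73 on the PaS array (log2 difference 1.12 ± 0.32, limma adjusted p = 0.0745), and passed after centring and after quantile normalization. Kremen2 showed -0.38 log2 units and did not pass.

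**Figure D2:**
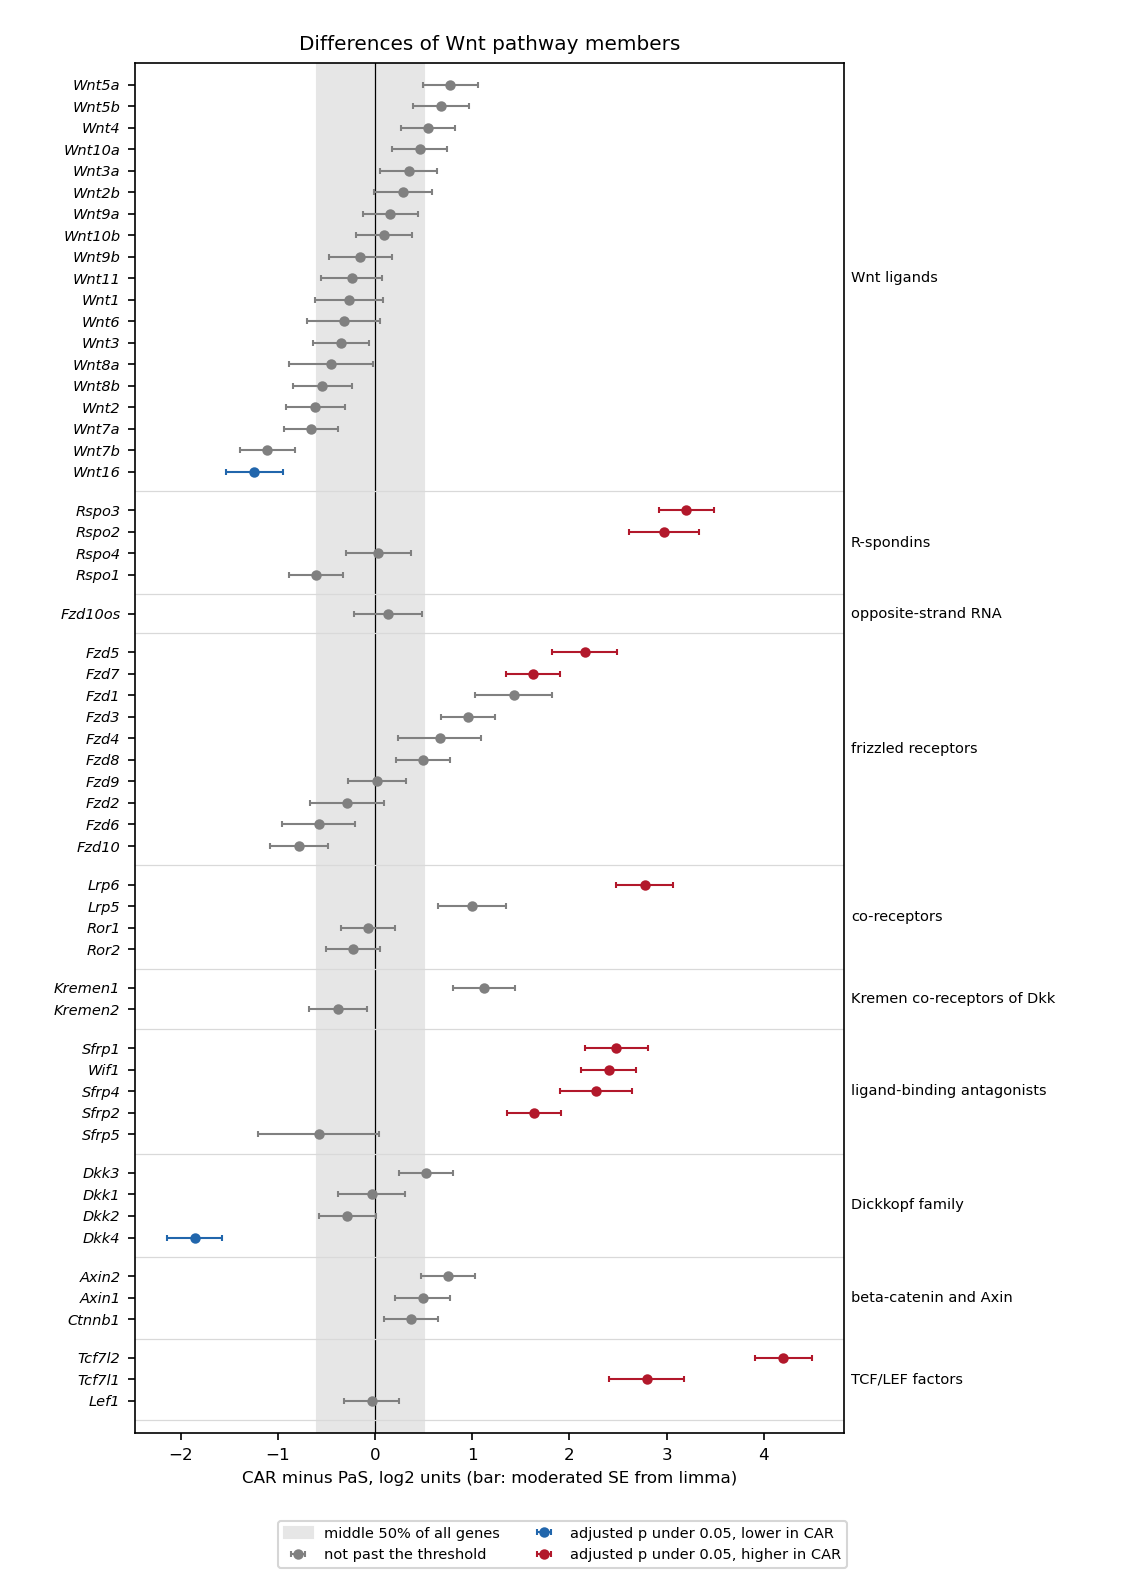
Difference of each member, CAR minus PaS, in log2 units (horizontal axis), with limma's moderated SE as the bar and genes down the page by role. Red marks the 11 members past an adjusted p of 0.05 that were higher in CAR cells, blue the 2 lower, and grey the 42 others, and the shaded band holds the middle 50% of all genes, from -0.60 to 0.50. Red points appear among R-spondins, frizzleds, Lrp6, ligand-binding antagonists and TCF factors, and none among the Wnt ligands.

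Secreted antagonists that bind Wnt ligands were higher in 4 of 5 cases. Sfrp4, a frizzled-related protein of bone and connective tissue, stood at 10.27 and 10.93 on the CAR arrays, against 8.33 on the PaS array. Its CAR level was 4.84-fold higher (2.27 ± 0.37 log2 units, SE; limma adjusted p = 0.0265), and it exceeded the 95th percentile of all genes on all 3 arrays. Sfrp1 stood at 6.61 and 7.04 on the CAR arrays, against 4.34 on the PaS array, a 5.59-fold difference (limma adjusted p = 0.0187). Sfrp2 stood at 6.35 and 6.27 on the CAR arrays, against 4.68 on the PaS array, a 3.11-fold difference (limma adjusted p = 0.0283). Wif1, Wnt inhibitory factor 1, stood at 6.07 and 6.19 on the CAR arrays, against 3.73 on the PaS array, a 5.29-fold difference (limma adjusted p = 0.0159). In all 4 genes both CAR arrays lay above the PaS array. Sfrp5 did not pass (limma adjusted p = 0.551), and its CAR arrays disagreed, at 3.80 and 2.33, against 3.65 on the PaS array.

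Of 4 Dickkopf genes, 0 were higher and 1 was lower in CAR cells by limma's test (1 had an unadjusted p under 0.05, as had 35.1% of all genes). Dkk4, an LRP5 and LRP6 antagonist, stood at 2.79 and 2.91 on the CAR arrays, against 4.71 on the PaS array, and was 3.63-fold lower (log2 difference -1.86 ± 0.28, SE; limma adjusted p = 0.0233). Its CAR values lay well below the median gene. Dkk1, the best-known inhibitor of LRP6, had 3.41 and 2.86 on the CAR arrays, against 3.17 on the PaS array, so the groups overlapped. Dkk2 and Dkk3 had differences of -0.29 and 0.52, and did not pass. Whether the Dickkopf genes differ from the Sfrp genes as families was not tested.

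Inside the cell, beta-catenin and both Axin genes had positive differences that did not pass the test, and that of beta-catenin was negative after quantile normalization. Ctnnb1, beta-catenin, stood at 6.64 and 6.70 on the CAR arrays, against 6.30 on the PaS array. The difference of 0.37 log2 units did not pass (limma adjusted p = 0.397; unadjusted 95% interval from -0.34 to 1.08), and the value after quantile normalization was -0.16. Axin1, a scaffold of the beta-catenin destruction complex, had 4.86 and 4.72 on the CAR arrays, against 4.30 on the PaS array, and did not pass. Axin2, a scaffold that is itself a widely used target gene of beta-catenin signalling, had 4.17 and 4.15 on the CAR arrays, against 3.40 on the PaS array. Its log2 difference of 0.75 ± 0.28 (SE) did not pass (limma adjusted p = 0.125), and the unadjusted 95% interval ran from 0.05 to 1.46, so a CAR level up to 2.75-fold higher lies within it. After quantile normalization Axin2 passed the test.

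The TCF/LEF factors held the member with the largest difference. Tcf7l2 stood at 8.24 and 8.48 on the CAR arrays, against 4.16 on the PaS array, 18.4-fold apart (4.20 ± 0.29 log2 units, SE; limma adjusted p = 0.00914). Tcf7l1, which acts mostly as a repressor, stood at 6.05 and 6.74 on the CAR arrays, against 3.60 on the PaS array, a 6.94-fold difference (2.79 ± 0.38; limma adjusted p = 0.0200). Lef1, which is also made by early lymphoid cells, stood at 4.23 and 4.16 on the CAR arrays, against 4.23 on the PaS array, a difference of -0.04 (limma adjusted p = 0.939). Beside it, 6 of 9 B lymphoid markers and 1 of 8 T and NK cell markers were lower in CAR cells. The B lymphoid log2 levels summed to 34.8 and 33.0 on the CAR arrays, against 52.1 on the PaS array, and the T and NK levels to 23.7 and 22.4, against 28.7. The part of lymphoid RNA in the Lef1 value was not tested.

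Promoter windows were searched for the core of the TCF/LEF binding motif because Tcf7l1 and Tcf7l2, which bind it, were among the members with the largest differences. Windows of 300 bases, 250 before to 50 after an annotated start, came from RefSeq on GRCm38.p6, and 36 of the 55 members had 1 or more. The words searched, on both strands, were the letters CTTTG followed by AA, AT, TA or TT. These 4 words share their first 5 letters, so only 1 of them can start at a given base of a strand. A word was present in 7 of 44 member windows (15.9%), beside 5544 of 32851 windows of all genes (16.9%). The windows differed in composition, with a median of 26.5 CG pairs in member windows, against 7 in all windows. The 2 shares are therefore not like for like, and the part of composition in them was not tested. Of the 13 called members, 7 had a window, and 2 of their 8 windows held a word. These 2 windows, of Tcf7l2 and Fzd7, are shown together with the other Tcf7l2 window, each 5′ to 3′ on the gene's strand (the + strand for all 3), with the word in capitals. The downstream start of Tcf7l2 has the word 14 bases before it, the upstream start has none, and Fzd7 has it 130 bases before its start in the reverse orientation. A word in a window is a match of letters and no measurement of binding.
Tcf7l2, downstream start, chr19:55895071-55895370: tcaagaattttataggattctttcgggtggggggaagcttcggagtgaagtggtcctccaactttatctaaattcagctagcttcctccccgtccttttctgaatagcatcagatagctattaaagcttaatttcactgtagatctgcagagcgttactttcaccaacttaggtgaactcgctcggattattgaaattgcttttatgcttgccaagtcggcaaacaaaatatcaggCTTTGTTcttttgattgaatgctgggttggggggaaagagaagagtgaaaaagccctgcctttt
Tcf7l2, upstream start, chr19:55741560-55741859: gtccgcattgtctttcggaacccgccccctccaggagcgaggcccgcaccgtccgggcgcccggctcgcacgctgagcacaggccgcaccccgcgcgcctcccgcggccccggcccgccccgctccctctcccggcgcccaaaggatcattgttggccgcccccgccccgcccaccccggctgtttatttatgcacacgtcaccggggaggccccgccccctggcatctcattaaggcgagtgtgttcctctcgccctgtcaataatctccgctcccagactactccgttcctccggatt
Fzd7, chr1:59481897-59482196: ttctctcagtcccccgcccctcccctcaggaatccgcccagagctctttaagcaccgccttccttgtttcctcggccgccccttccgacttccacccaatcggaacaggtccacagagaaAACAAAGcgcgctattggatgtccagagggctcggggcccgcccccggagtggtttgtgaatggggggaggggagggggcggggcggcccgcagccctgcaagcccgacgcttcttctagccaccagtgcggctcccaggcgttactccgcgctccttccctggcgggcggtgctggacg

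Genes of the pathway outside the name pattern were read from 7 lists by role. Of 74 genes, limma called 21 higher in CAR cells and 2 lower, which is 28.4% and 2.7%, beside 8.56% and 6.42% of all genes, with a median difference of 0.66 log2 units. On the PaS array 9 of these 21 lay below the median of all genes, among them Wls, Lgr4, Gpc4, Adgra2, Tle2, Tnfrsf19 and Dact1. The size of their folds is therefore uncertain, as for the dim members. Of 3 ligand secretion genes 2 rose. Porcn, the enzyme that attaches the lipid to Wnt proteins, stood at 5.76 and 6.10 on the CAR arrays, against 3.89 on the PaS array (4.12-fold, limma adjusted p = 0.0231). Wls, the carrier of Wnt proteins to the surface, stood at 5.76 and 5.94 on the CAR arrays, against 3.43 on the PaS array (5.35-fold, limma adjusted p = 0.0162). Notum, which removes the lipid, did not pass.

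Of 12 other surface and secreted regulators, 6 were higher in CAR cells and 0 lower (10 had an unadjusted p under 0.05 in limma's test, both directions, as had 35.1% of all genes). Gpc4, a heparan sulfate proteoglycan of the cell surface, was 12.5-fold higher, with 5.89 and 6.56 on the CAR arrays, against 2.58 on the PaS array. Its log2 difference of 3.65 came to 2.05 with 16 intensity units added. Adgra2, a co-receptor for Wnt7 ligands in mouse brain endothelium, was 5.36-fold higher, and Lrp4, a receptor of sclerostin, 3.29-fold. Of 10 planar cell polarity genes 1, the formin-type Daam2, was higher (3.39-fold), and 0 were lower (3 had an unadjusted p under 0.05 in limma's test). Over all genes the shares were 8.56% higher, 6.42% lower and 35.1% under that unadjusted p, so these counts are not read as a trait of the list.

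Of 16 dishevelled and destruction complex genes, 3 were higher and 1 lower. The beta-catenin kinase Csnk1a1 was 5.72-fold higher in CAR cells, Gsk3a 2.99-fold and Gsk3b 2.43-fold. Gsk3b did not pass after quantile normalization (0.74 log2 units, limma adjusted p = 0.0714) or with a variance prior that follows intensity (limma adjusted p = 0.0576). Frat2, which binds and restrains GSK3, stood at 4.44 and 4.67 on the CAR arrays, against 6.15 on the PaS array, and was 3.01-fold lower. Of 13 nuclear co-factors 4 were higher and 0 lower (7 had an unadjusted p under 0.05 in limma's test, as had 35.1% of all genes). Among these, the Groucho-type co-repressor Tle2 was 6.26-fold higher, and the beta-catenin adaptors Bcl9l and Bcl9 were 4.11-fold and 3.20-fold higher. With 16 intensity units added, Tle2 differed by 1.69 log2 units, against 2.65 as deposited. Adjusted p ran from 0.0130 to 0.0438 over these 7 genes in limma's test.

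Of 15 feedback and target genes, 4 were higher and 1 lower. Tnfrsf19, a receptor of the tumour necrosis factor family, stood at 6.93 and 6.98 on the CAR arrays, against 3.65 on the PaS array, and was 9.91-fold higher (limma adjusted p = 0.0107), a log2 difference of 3.31 that came to 2.30 with 16 intensity units added. Dact1, a dishevelled-binding protein, was 6.86-fold higher, and the matricellular gene Ccn5 5.85-fold. Cd44, a hyaluronan receptor that leukocytes also carry, stood at 4.54 and 4.31 on the CAR arrays, against 6.70 on the PaS array, and was 4.83-fold lower, as were 7 of 8 leukocyte markers. Their part in the Cd44 value was not tested. Several of these genes respond to other pathways as well.

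**Figure D3:**
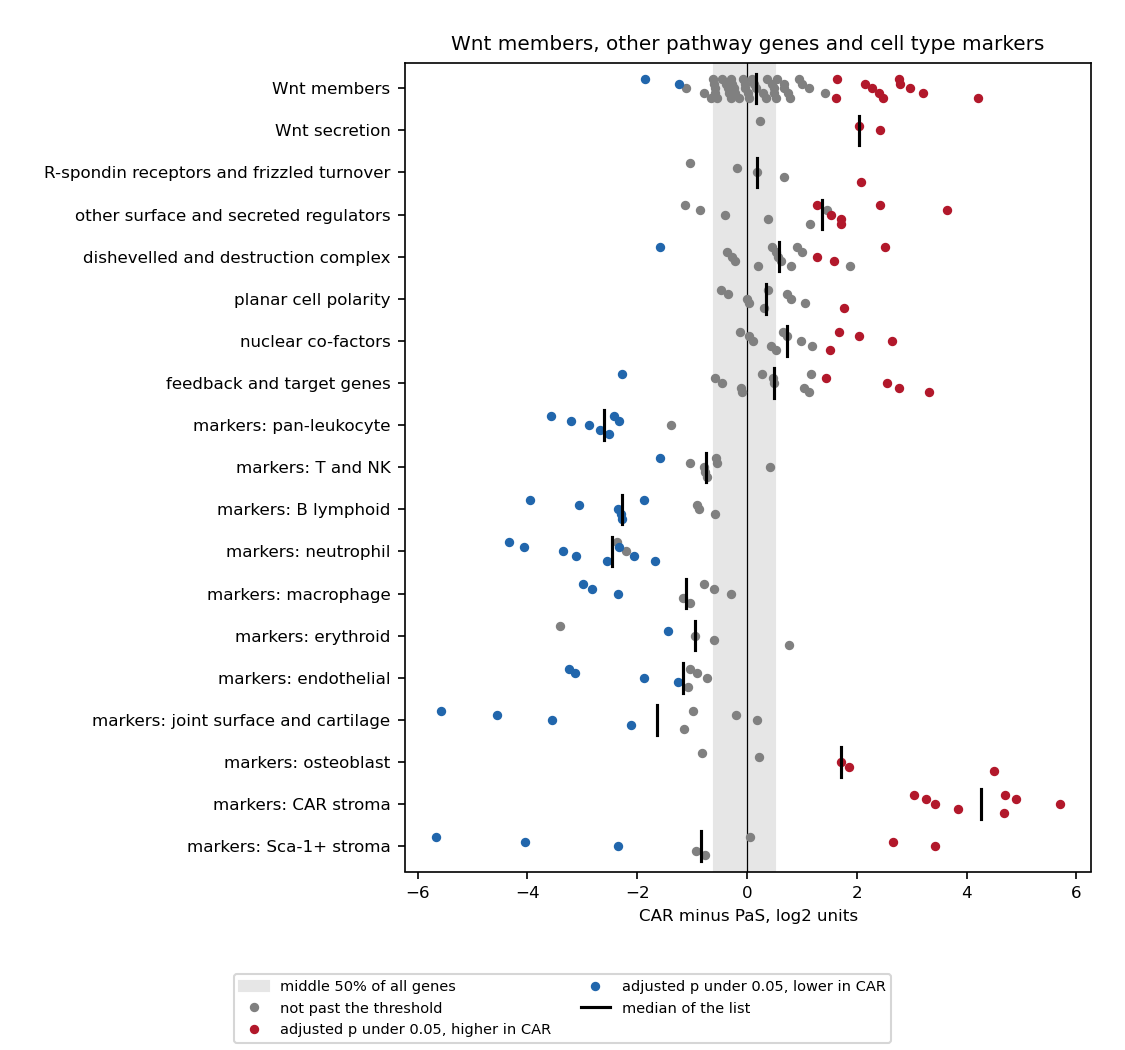
Differences, CAR minus PaS, in log2 units (horizontal axis) for the 55 Wnt members, 7 lists of other pathway genes and 11 lists of cell type markers. Each point is a gene, coloured red or blue where the adjusted p was under 0.05 (higher or lower in CAR cells) and grey otherwise, a black bar is the list's median, and the shaded band holds the middle 50% of all genes. Leukocyte, neutrophil and joint surface markers lie to the left and CAR stroma markers to the right, with the called pathway genes mostly to the right.

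The member differences were set beside those of mesenchymal genes, a reading added after the data were seen and given without a test. Prrx1 and Pdgfra were 2.67 and 3.42 log2 units higher in CAR cells. Of the 55 members, 5 had a larger measured difference than Prrx1, and 1 of these, Tcf7l2, also a larger one than Pdgfra. Other stromal genes differed more. The 8 CAR stroma markers, Pdgfra among them, had differences between 3.04 and 5.70, with a median of 4.26. No member reached that median, the largest being Tcf7l2 with 4.20. Rspo3 was above Prrx1 by more than its own SE, but Prrx1 also had an SE, of 0.30. The PaS value of Rspo3, 3.89, lay near the median gene, 3.77, and its difference came to 2.31 with 16 intensity units added. Lrp6, Rspo2 and Tcf7l1 were above Prrx1 by less than their SEs and were dim on the PaS array. The order of Prrx1, Rspo3, Lrp6, Rspo2 and Tcf7l1 is therefore not resolved.

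The calls rest on 2 CAR arrays and 1 PaS array, which is assumed to vary as the CAR arrays do. With values below the median raised to it, 0 of the 11 higher calls remained in limma's test (10 members were higher and 7 lower at an unadjusted p under 0.05), and after adding 16 intensity units before the log, 0 of all 19938 genes were called (at an unadjusted p under 0.05, 17 members were higher and 5 lower), although all 13 called members kept their sign in both settings. As deposited, 17 members were higher and 4 lower at an unadjusted p under 0.05 in limma's test, beside 35.1% of all genes in either direction. The share of all genes was not counted in the other 2 settings, so their unadjusted counts are not read as support. The differences of the 11 higher members moved by less than their SEs with the floor, lying between 1.63 (Fzd7) and 4.20 log2 units (Tcf7l2), and 12 members stayed 2-fold or more above PaS on each CAR array. With 16 units added they lay between 1.09 (Fzd7) and 3.35 (Tcf7l2).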

How the data were processed

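Gene expression of sorted mouse marrow cells was measured on 3 single-colour Affymetrix arrays, from total RNA amplified with a NuGEN kit per the labels' protocols. The authors deposited 1 signal intensity per probe set on a linear scale, made with Affymetrix Expression Console and RMA per the submitters' processing notes. Software versions and the array's build are not stated there, and detection calls were not used. For CAR cells the median intensity of 35556 probe sets was 11.9 and 11.3, against 12.8 for PaS cells, and the interquartile range of log2 values over genes was 1.96 and 2.28, against 1.35.

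Log2 was taken with no pseudocount. Of the probe sets, 21789 had 1 symbol, 1621 several and 12146 none in the platform annotation. Symbols were updated by gene ID (21698 matched), and a gene with several probe sets (among members, 1: Wnt4) was read from its brightest. CAR and PaS were compared with limma 3.58.1 in R 4.3.3 (lmFit, eBayes, two-sided, Benjamini-Hochberg over 19938 genes), with 1 residual and 4.20 prior degrees of freedom. The p-values measure only the spread between the 2 CAR arrays and the prior. The fit was tested on simulated data. Named are all members, sort genes, and up to 3 called genes per pathway list and direction. Members and lists were chosen with earlier results of these data known. Alternatives were centring, quantile normalization, the mean of probe sets, a filter and a floor at the median, a trended or robust prior, a pseudocount of 16, and leaving out a CAR array.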

Additional observations from a re-analysis of the deposited data

How the results depend on the processing

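Centring and quantile normalization moved the median difference of all genes by 0.14 and 0.13 log2 units, and the members' median exceeded it by 0.25 as deposited, 0.25 after centring and 0.21 after quantile normalization. The 11 higher members all stayed called under centring, quantile normalization and both other priors. They also stayed called with the mean of probe sets and the filter at the median level, but neither setting tests these calls. Only Wnt4 has more than 1 probe set. The filter used the mean over all 3 arrays, so genes dim on the PaS array, such as Rspo2, Lrp6, Wif1 and Tcf7l1, could pass it through their CAR levels. Centring called 15 members higher (gaining Fzd1, Fzd3, Kremen1 and Lrp5) and quantile normalization 16 (gaining Axin2, Fzd3, Kremen1, Wnt3a and Wnt5a). The filter, which tested 35 members, and the robust prior called 12 each (gaining Fzd1). Other pathway genes called higher numbered 31 after centring and 28 after quantile normalization. Calls over all genes rose as well, from 1706 higher as deposited to 3025 after centring, 2841 after quantile normalization and 2180 with the robust prior. The filter called 2062 of 9969 genes higher and 510 lower. Whether members gained more calls than all genes did was not tested. With a floor at the median limma called 1 member higher, Wnt4, which is not one of the 11, and 6 lower, and with the pseudocount of 16 it called 0 and 0 (at an unadjusted p under 0.05, 17 were higher and 5 lower); over all genes these settings called 298 higher and 1760 lower, and 0 and 0, with 0.27 and 1.76 prior degrees of freedom. The share of all genes at an unadjusted p under 0.05 was not counted with the floor or the pseudocount. With the floor, both CAR values of Dkk4, Wnt16, Fzd6, Fzd10 and Wnt7a became equal, so their lower calls there rest on no CAR spread. The filter left 1 lower member, Wnt7b, because Dkk4 and Wnt16 were not tested under it. The PaS level of Wnt7b, its highest, counted in the mean that the filter used, so this setting does not test that call. Members below their PaS level by 2-fold or more on each CAR array numbered 1 with the filter, 1 with the floor and 0 with the pseudocount. Other pathway genes called higher numbered 4 with the floor and 0 with the pseudocount, and those called lower 4 after quantile normalization, 4 with the floor and 0 with the pseudocount. The members' median was 0.30 after centring, 0.24 after quantile normalization, 0.54 with the filter, 0.0015 with the floor and 0.083 with the pseudocount, and between 0.16 and 0.24 with a CAR array left out. The filter also raised the median of all genes, to 0.37. The members' excess over all genes was therefore 0.18 with the filter, and it was 0.0015 with the floor and 0.12 with the pseudocount, against 0.25 as deposited. With both CAR arrays in the fit, sign changes were confined to members that had not passed: Ctnnb1 (-0.16), Dkk1 (0.34), Wnt1 (0.20) and Wnt3 (0.086) after quantile normalization, Dkk1 (0.10), Lef1 (0.10) and Ror1 (0.069) after centring, and Sfrp5 (0.021) with the floor. The cause of these changes was not tested. With a CAR array left out no residual spread remains, so no test was made. No paired analysis was possible because the CAR arrays and the pooled PaS array came from different mice, of different genotypes.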
